A study of Homo sapiens with 9 samples.

Results

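The genomic sites of ARID1A and ARID1B, which replace each other in the SWI/SNF chromatin remodeler, were compared in HepG2 cells, an established line from a human hepatocellular carcinoma. The members were all peaks of the ARID1A list (12852) and of the ARID1B list (8728), 21580 of the 55293 peaks in the 4 lists of the series. They were compared by position, where 1 shared bp counted as an overlap, and by the nearest gene, feature class (promoter, exon, intron or distal) and distance to the nearest transcription start site (TSS) that the authors deposited with each peak. Chromatin was immunoprecipitated with Santa Cruz antibodies sc-32761X against ARID1A and sc-32762X against ARID1B, in 2 replicates each. The labels name no gene edit and no treatment for these cells, which were grown in serum-containing medium. Both replicates were merged before peak calling, so each subunit has 1 list, there is no replicate error, and the subunit cannot be told apart from its antibody and from the depth of its libraries. A site "alone" is a site with no called peak of the other subunit, and weaker signal below the calling threshold may be present there.

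SWI/SNF complexes use the energy of ATP to slide or eject nucleosomes. ARID1A and ARID1B are large DNA-binding subunits that occupy the same place in the complex, so that a BAF particle holds either ARID1A (BAF-A) or ARID1B (BAF-B). ARID2 takes that place in the PBAF form, and SNF5 (SMARCB1) is a core subunit of both BAF and PBAF.

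The regions below show the DNA at some of the widest sites among genes named in each class. These were wide promoter peaks of genes with ARID1A only, wide peaks of genes with ARID1B only, and the longest stretches covered by both. They are stretches of the hg19 (GRCh37) plus strand that hold no annotated exon, and capitals mark matches of the motifs GGGCGG of the SP/KLF factors and CACGTG, the E-box, on either strand.
ARHGAP5, ARID1A alone, intron, chr14:32546642-32546881: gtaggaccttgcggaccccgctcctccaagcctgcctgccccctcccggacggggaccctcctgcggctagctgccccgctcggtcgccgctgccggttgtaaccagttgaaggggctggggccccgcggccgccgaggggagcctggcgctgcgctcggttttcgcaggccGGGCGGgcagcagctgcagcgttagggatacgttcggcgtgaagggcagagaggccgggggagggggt
SLC16A1, ARID1A alone, intron, chr1:113498821-113499020: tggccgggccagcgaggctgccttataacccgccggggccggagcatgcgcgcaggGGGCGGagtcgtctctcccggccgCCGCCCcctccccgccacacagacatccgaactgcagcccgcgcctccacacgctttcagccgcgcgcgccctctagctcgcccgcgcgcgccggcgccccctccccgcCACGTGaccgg
GRK1, ARID1B alone, intron, chr13:114428750-114428989: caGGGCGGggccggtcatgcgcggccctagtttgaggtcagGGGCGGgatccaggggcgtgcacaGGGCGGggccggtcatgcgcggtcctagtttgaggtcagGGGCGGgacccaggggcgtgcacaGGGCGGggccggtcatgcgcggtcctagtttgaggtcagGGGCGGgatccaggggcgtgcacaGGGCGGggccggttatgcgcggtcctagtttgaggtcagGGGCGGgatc
IL1R2, ARID1B alone, intergenic, chr2:102650164-102650403: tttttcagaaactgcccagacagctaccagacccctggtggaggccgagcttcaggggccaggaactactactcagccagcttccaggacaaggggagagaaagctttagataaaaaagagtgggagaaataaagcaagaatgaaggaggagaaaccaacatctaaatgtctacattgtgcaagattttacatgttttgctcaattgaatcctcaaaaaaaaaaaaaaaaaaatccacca
SP5, both, intron, chr2:171572074-171572313: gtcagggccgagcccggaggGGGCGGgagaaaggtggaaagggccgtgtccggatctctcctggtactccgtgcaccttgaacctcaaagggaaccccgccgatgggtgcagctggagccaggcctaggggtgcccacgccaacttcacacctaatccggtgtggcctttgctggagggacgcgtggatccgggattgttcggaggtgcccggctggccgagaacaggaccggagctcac
AJUBA, both, intron, chr14:23446433-23446672: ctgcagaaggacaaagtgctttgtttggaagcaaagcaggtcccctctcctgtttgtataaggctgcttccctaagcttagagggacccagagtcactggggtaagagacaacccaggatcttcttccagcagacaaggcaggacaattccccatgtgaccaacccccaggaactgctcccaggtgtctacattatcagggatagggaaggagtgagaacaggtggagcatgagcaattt
The stretches at ARHGAP5 and SLC16A1, genes for a GTPase-activating protein and the lactate transporter MCT1, held 25 and 31 CpG dinucleotides. The stretch at IL1R2, the decoy receptor of interleukin 1, held 1 CpG. The ARID1B site at GRK1 was a tandem repeat with 8 copies of GGGCGG in 240 bp. Of the 2 shared stretches, that of SP5 held 17 CpG and that of AJUBA 0.

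Most sites of either subunit had no called peak of the other. ARID1B overlapped 2687 ARID1A peaks (20.9%, Wilson 95% interval 20.2 to 21.6%), and ARID1A overlapped 2802 ARID1B peaks (32.1%, 31.1 to 33.1%). Intervals here and below cover counting error over peaks, regions or genes only. Merging both lists gave 18700 regions, of which 10165 (54.4%) held ARID1A alone, 5926 (31.7%) ARID1B alone and 2609 (14.0%) both. In 2370 of the shared regions each subunit had a single peak. Shared regions had a median width of 532 bp (quartiles 337 and 786), against 196 bp (116 and 323) for ARID1A alone and 144 bp (75 and 218) for ARID1B alone. These shares moved with the definition of a shared site. They rose to 36.7% of ARID1A and 49.2% of ARID1B peaks when neighbours up to 1000 bp apart counted, and were 5.25% and 7.73% when each peak had to cover 50% or more of the other.

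Where the peaks met, the ARID1B peak was often the smaller, nested one. Among the 2880 overlapping pairs, the ARID1B peak lay wholly inside the ARID1A peak in 1223 (42.5%, 40.7 to 44.3%) and the ARID1A peak inside the ARID1B peak in 380 (13.2%, 12.01 to 14.48%). Pairs shared a median of 136 bp, with midpoints 123 bp apart. The excess of ARID1B peaks inside ARID1A peaks was mainly a promoter pattern. At 1879 promoter pairs the median ARID1A width was 514 bp and the median ARID1B width 209 bp. There ARID1B lay inside ARID1A in 50.7% (48.4 to 52.9%) and ARID1A inside ARID1B in 7.61% (6.50 to 8.90%). At the 1001 other pairs the widths were 279 and 261 bp. The nested shares were 27.1% (24.4 to 29.9%) and 23.7% (21.1 to 26.4%) in the same order, so nesting itself was frequent there too.

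Sites with ARID1A alone were mostly promoter sites, and sites with ARID1B alone mostly were not. Of the peaks with ARID1A alone, 74.7% (73.9 to 75.6%) were of the promoter class, which reached up to 998 bp from a TSS, 11.9% were intronic and 11.4% distal. Of the peaks with ARID1B alone, 24.7% (23.6 to 25.8%) were of the promoter class, 42.6% intronic and 30.1% distal. Exons held 1.92% and 2.62%. The median distance to a TSS was 227 bp (quartiles 58 and 1017) for ARID1A alone and 5045.5 bp (1028 and 15338.8) for ARID1B alone, and 102 peaks with ARID1B alone, against 16 with ARID1A alone, lay over 100000 bp away. The promoter share differed with an odds ratio of 9.01 (8.37 to 9.70; two-sided Fisher's exact test, log10 of the adjusted p -855), and it was higher for ARID1A alone on 24 of 24 chromosomes. Within 5 strata of peak width the odds ratio was 7.91. The chromosomes come from the same merged lists, and neither their tally nor the p-value measures a spread between replicates.

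Shared sites differed from sites alone in opposite directions in the 2 lists. Of the shared ARID1A peaks 64.6% were promoter peaks, below the 74.7% of ARID1A peaks alone (odds ratio 0.617, 0.563 to 0.676, Fisher's exact test, adjusted p = 9.58e-25), and the share was higher for shared peaks on 2 of 23 chromosomes. Of the shared ARID1B peaks 65.7% were promoter peaks, above the 24.7% of ARID1B peaks alone (odds ratio 5.83, 5.29 to 6.43, Fisher's exact test, adjusted p = 4.72e-295), on 23 of 23 chromosomes. Peaks and chromosomes are not replicates, so these tests and tallies compare the deposited lists and not conditions. The odds ratio for ARID1A alone against ARID1B alone ranged from 4.86 with reciprocal overlap to 18.2 with a gap of up to 1000 bp.

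**Figure D1:**
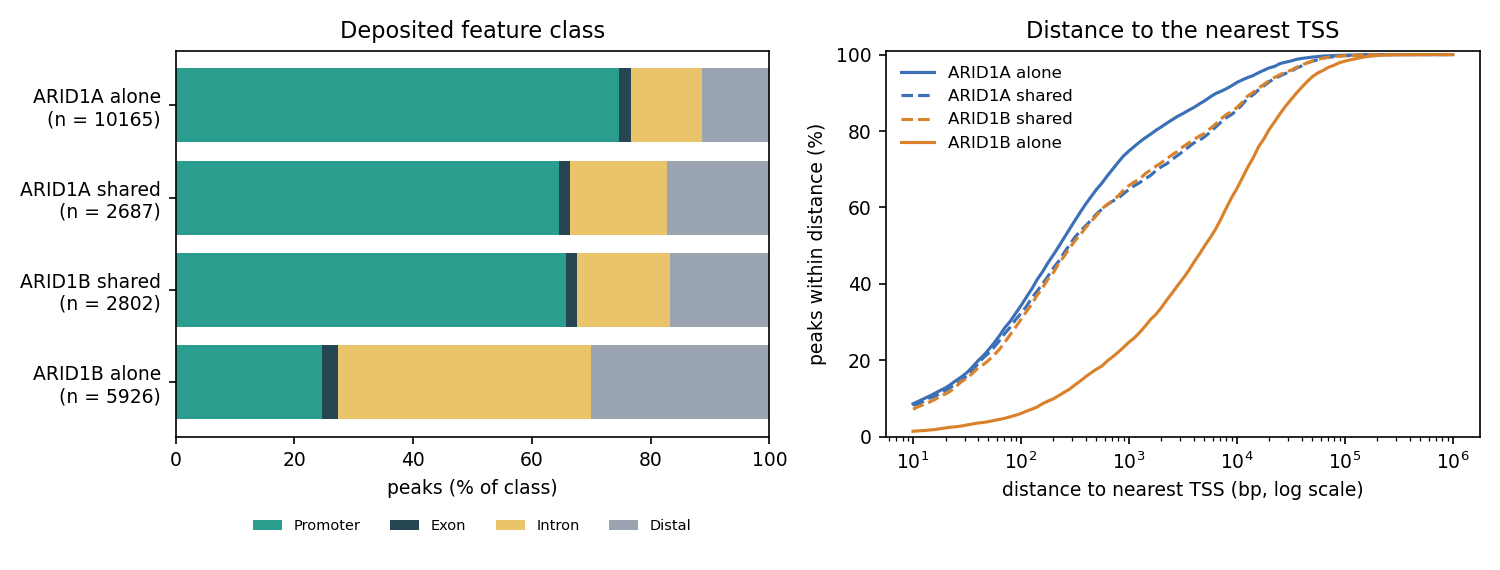
Left, share of peaks in each deposited feature class for the 4 kinds of peak (horizontal bars, % of class, n in the labels). Right, cumulative share of peaks (%) within a distance of the nearest TSS (bp, log scale), with solid lines for peaks alone and dashed lines for shared peaks. The line of ARID1B alone (median 5045.5 bp) lies to the right of the other 3, whose medians are 227 to 292.5 bp.

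The core subunit and ARID2, whose lists played no part in choosing the classes, overlapped the 3 kinds of region to different extents. SNF5 peaks overlapped 94.2% (93.21 to 95.01%) of the shared regions, 65.5% (64.5 to 66.4%) of those with ARID1A alone and 49.1% (47.9 to 50.4%) of those with ARID1B alone. All 3 pairs differed: the odds ratio was 8.53 for shared regions against ARID1A alone (Fisher's exact test, adjusted p = 9.28e-229), 16.7 for shared regions against ARID1B alone (log10 of the adjusted p -410) and 1.96 for ARID1A alone against ARID1B alone (adjusted p = 1.82e-91). Shared regions were also the widest. Within 5 strata of region width these odds ratios were 3.22, 4.62 and 1.53. With the classes kept, and an SNF5 midpoint within 500 bp of the region midpoint counted as overlap, they were 2.04, 3.64 and 1.78. All were past the threshold of 0.05.

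ARID2, the subunit of PBAF, overlapped 69.3% (67.5 to 71.0%) of the shared regions, 33.8% (32.9 to 34.7%) of ARID1A alone and 11.8% (11.0 to 12.7%) of ARID1B alone. The odds ratios were 4.42, 16.9 and 3.81 in the same order as above, and 1.75, 6.22 and 2.96 within strata of width (Fisher's exact and Mantel-Haenszel tests, all past the threshold of 0.05). The order of the classes was the same outside promoters, where ARID2 overlapped 56.7% of shared regions, 19.9% of ARID1A alone and 8.45% of ARID1B alone. Regions that met neither SNF5 nor ARID2 made up 3.95% of the shared regions, 29.7% of ARID1A alone and 49.0% of ARID1B alone. The 4 immunoprecipitations came from the same cell line, and how many sites each library could detect is unknown.

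**Figure D2:**
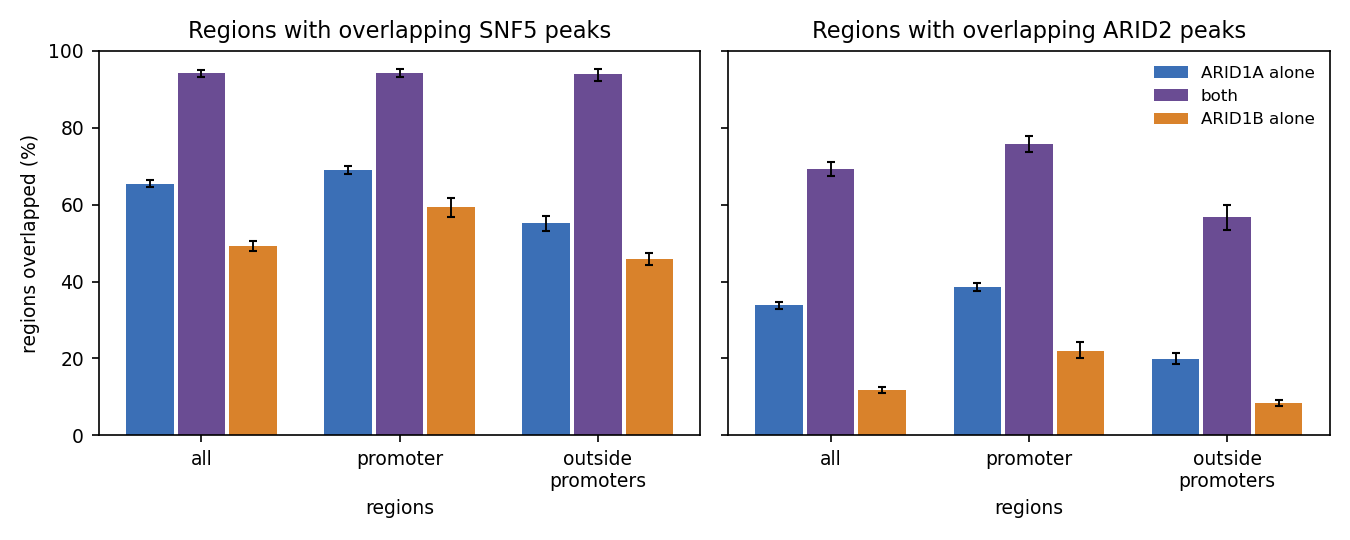
Share of regions (%) overlapped by at least 1 SNF5 peak (left) or ARID2 peak (right), for regions with ARID1A alone, both and ARID1B alone, over all regions, promoter regions and regions outside promoters; error bars are Wilson 95% intervals. The shared regions stand highest (94.2% for SNF5 and 69.3% for ARID2 over all regions) and those with ARID1B alone lowest.

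The DNA at and around the 3 classes of region differed in base composition. The windows of 300 bp were wider than the median region with ARID1A alone (196 bp) or ARID1B alone (144 bp). They were narrower than the median shared region (532 bp), so windows of sites alone held more flanking DNA. In windows of 300 bp at the region midpoints the median GC content was 64% for ARID1A alone, 63% for both and 47.7% for ARID1B alone, and a CpG ratio (observed over expected) above 0.6 was found in 65.0%, 61.2% and 15.2%. Among promoter regions alone the GC medians were 66.3%, 67% and 56.7%, and outside promoters 53%, 50.3% and 46%. GGGCGG, a site of the SP/KLF factors, was found in 53.6% of windows with ARID1A alone, 51.4% with both and 17.4% with ARID1B alone, against 41.9% of all windows. NRF1 letters (GCGCNTGCG) were found in 10.1%, 10.3% and 0.827%, and ETS letters (CCGGAAG) in 10.7%, 10.0% and 2.56%, against 7.17% and 8.01% of all windows. All motifs were searched on both strands, and overlaps between them were not removed. The plot of motif shares also shows CEBP (TTGCGNAA), HNF1 (GTTAATNAT), NFY (CCAAT) and CTCF (CCNCTAGNG) letters; YY1 letters (AAGATGGCG) were found in 1.42% of all windows. A match is a run of letters and not a bound site.

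Letters of AP-1, FOXA and HNF4 factors were distributed differently at promoters and outside them. Outside promoters, AP-1 letters (TGANTCA) were found in 15.2% (12.9 to 17.7%) of shared windows, 11.0% (9.83 to 12.2%) with ARID1A alone and 11.7% (10.8 to 12.7%) with ARID1B alone. FOXA letters (TGTTTAC) were found in 10.7% (8.87 to 13.0%), 5.53% (4.71 to 6.48%) and 7.26% (6.54 to 8.06%), and HNF4 letters (CAAAGTCC) in 6.11% (4.71 to 7.89%), 2.96% (2.37 to 3.69%) and 3.72% (3.20 to 4.32%) in the same order. Over all windows outside promoters the shares were 11.9% for AP-1, 7.09% for FOXA and 3.74% for HNF4 letters. FOXA and HNF4 factors set up and maintain liver gene expression. The shared windows outside promoters held the highest shares of all 3. Shared regions were also the widest, and these shares were not compared at equal region width or in smaller windows. At promoters the shares were highest with ARID1B alone: 7.65% against 4.41% with both and 4.49% with ARID1A alone for AP-1, 3.69%, 3.48% and 2.198% for FOXA, and 2.80%, 2.03% and 1.15% for HNF4 letters in that order. The intervals of ARID1B alone and both overlapped for FOXA and HNF4 letters there. Over all regions AP-1 letters were found in 10.7% of windows with ARID1B alone, 8.05% with both and 6.13% with ARID1A alone. TEAD letters (GGAATG) were found in 18.3% of windows outside promoters with ARID1B alone, 16.5% with both and 15.9% with ARID1A alone, against 17.3% of all such windows. TGTAATCCC, letters of the Alu repeat family searched after the data were seen, was found in 11.1% (10.19 to 12.03%) of windows outside promoters with ARID1B alone, 6.97% (6.05 to 8.02%) with ARID1A alone and 2.83% (1.92 to 4.14%) with both, against 8.82% of all such windows. The part of repeated sequence in these calls was not tested.

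**Figure D3:**
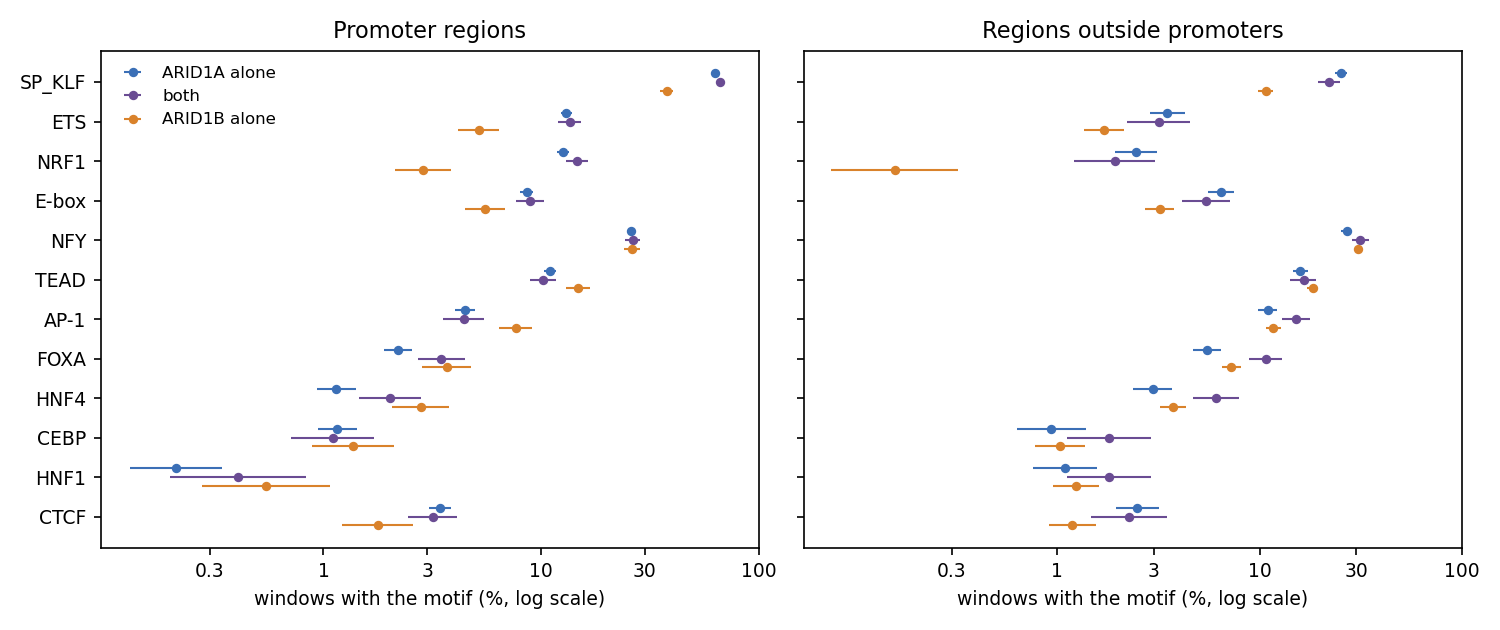
Share of 300 bp windows (%, log scale) that hold each motif, for promoter regions (left) and regions outside promoters (right); points are shares and lines Wilson 95% intervals, and YY1 is left out because 0 of 884 shared windows outside promoters held it. SP_KLF, ETS and NRF1 letters are scarcest with ARID1B alone on both sides, and outside promoters AP-1, FOXA and HNF4 letters are most frequent with both.

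By nearest-gene name, ARID1A, which has the longer list, reached more protein-coding genes than ARID1B. Of 20136 protein-coding genes, 4188 (20.8%) were named by ARID1A peaks only, 936 (4.65%) by ARID1B peaks only, 2508 (12.5%) by both and 12504 by neither, so that both subunits named 37.5% of the ARID1A genes and 72.8% of the ARID1B genes. With equal list sizes (the 8728 widest ARID1A peaks), 3116 genes had ARID1A only, 1292 ARID1B only and 2152 both. Names outside the protein-coding set were frequent with ARID1B: 42.2% (40.1 to 44.2%) of its exclusive names were protein-coding, against 81.7% (80.7 to 82.8%) for ARID1A. Names that matched no annotated gene count here as not protein-coding; 4159 of 5543 ARID1B names and 7284 of 8448 ARID1A names matched. A promoter peak was present in 94.0% of the genes with ARID1A only and in 41.7% of those with ARID1B only. Genes with both had an ARID1A promoter peak in 88.6% and an ARID1B promoter peak in 69.7%. Genes with ARID1B only had a median length of 45.4 kb, those with both 40.4 kb, those with ARID1A only 30.1 kb and those with neither 22.7 kb.

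A nearest-gene name can hide sharing, because neighbouring peaks may carry different names. Of the genes with ARID1A only, 3585 (85.6%) had no ARID1B peak over their peaks or within 5000 bp of the gene. Of the genes with ARID1B only, 703 (75.1%) had no ARID1A peak there. These are called exclusive below, a rule added after the data were seen. Counting any peak within 5000 bp of a gene body gave 4983 genes with ARID1A only, 905 with ARID1B only and 3891 with both.

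Having a gene in common did not always mean a site in common. Of the 2507 protein-coding genes named by both on 1 chromosome, 1523 (60.7%, 58.8 to 62.6%) had an overlapping pair and 984 (39.3%, 37.4 to 41.2%) had separate sites. Among those with an overlapping pair, 83.3% had promoter peaks of both. Among those with separate sites, 425 had a promoter peak of ARID1A only and 43 had a promoter peak of ARID1B only. A gap here is the distance between the closest ARID1A and ARID1B peaks that carry the gene's name, of any feature class. Its median was 9301 bp for the genes with a promoter peak of ARID1A only. A further 413 had promoter peaks of both that did not touch. The median gap of these genes was 199 bp, which need not lie between their promoter peaks. The count depended on the rule, since 509 of the 984 genes had a gap of up to 1000 bp.

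The genes with ARID1A only and the most peaks included regulators of transcription. SKI, a repressor of SMAD signalling, had 7 ARID1A peaks, 6 of them between 2141 and 7376 bp past its start, and no ARID1B peak within 5000 bp of the gene (chr1:2158827-2241652). ELF2, an ETS factor, had 6 peaks in 2 groups: 3 at its start, the widest 431 bp, and 3 at 92698 to 94157 bp inside the gene at a further TSS. PROC, the gene of the anticoagulant protein C that liver cells secrete, had 6 peaks, 3 at promoters and 3 distal at 2319 to 10225 bp from a TSS. PLEC, which encodes the cytoskeletal linker plectin, had 6. These 4 genes were exclusive. ERCC1, a nuclease subunit of excision repair, was named by 9 ARID1A peaks, but 2 ARID1B peaks lay within 5000 bp of it, and SIN3A, a scaffold of histone deacetylase complexes, had 5 ARID1A peaks with 1 ARID1B peak nearby. The widest promoter peaks with ARID1A only were at HDLBP (1694 bp), ARHGAP5 (1687 bp), SLC16A1 (1606 bp), ATXN2L (1569 bp), RAB10 (1561 bp) and MARCHF7 (1511 bp). HDLBP and MARCHF7 were not exclusive, since ARID1B peaks named for a neighbour covered part of these peaks.

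The genes with ARID1B only and the most peaks were bound mainly in introns or upstream. FCGBP, which encodes an IgG Fc binding protein of mucus, had 6 ARID1B peaks inside the gene, 3 in introns, 1 in an exon and 2 at an internal promoter. FGA, the fibrinogen alpha chain, had 5: a promoter peak of 235 bp (chr4:155512058-155512292) 254 bp from a TSS, and 4 distal peaks 6652 to 8293 bp away. MTMR12, of the myotubularin family, had 5 (a promoter peak, 3 in introns and 1 distal), NEB, the muscle protein nebulin, had 4, C1orf131 had 4 and GXYLT2, a xylosyltransferase, had 4. GXYLT2 was not exclusive. Among genes with ARID1B only, the widest peaks were at GRK1 (1836 bp), a G protein-coupled receptor kinase, MBL2 (1339 bp), the plasma mannose-binding lectin, APOA1 (1078 bp), IL1R2 (1072 bp), UGT2B15 (1060 bp), an enzyme that conjugates androgens, and ACACB (994 bp), the acetyl-CoA carboxylase that controls fatty acid oxidation. APOA1, the main protein of high-density lipoprotein, had 4 ARID1A peaks within 5000 bp that carried the names of other genes.

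The genes with both and the most peaks were SEPTIN9, a cytoskeletal GTPase (21 ARID1A and 15 ARID1B peaks), SLC7A5, the amino acid transporter LAT1 (22 and 13), FCGR2A (13 and 12), FOXQ1, a forkhead factor (11 and 11), SPTBN1, a spectrin (10 and 12), and FNDC3B (10 and 10). The peaks named for FCGR2A, an Fc receptor of immune cells, were distal, at least 33440 bp from a TSS, and 7 peaks of each list overlapped. At SLC7A5, 12 peaks of each list overlapped. The longest shared stretches were at SP5 (3049 bp), a factor induced by Wnt signalling, AJUBA (1696 bp), an adaptor of the Hippo pathway, ID1 (1436 bp), an inhibitor of helix-loop-helix factors, DCAF11 (1367 bp), ERF (1159 bp), an ETS repressor, and SMC6 (1044 bp). At SP5 the ARID1A peak of 3448 bp (chr2:171570349-171573796) enclosed the ARID1B peak of 3049 bp, and the 2 other peaks of each list there overlapped as well.

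Some genes carried many peaks of both names with no overlapping pair among them. SLC22A23, of the organic ion transporter family, had 7 ARID1A peaks, 2 of them at the promoter, and 9 ARID1B peaks, 8 of them in introns. The stress kinase gene MAP4K4 had 4 ARID1A peaks, the widest (627 bp, chr2:102313356-102313982) at the promoter, and 9 ARID1B peaks, 2 upstream and 7 in introns. SMAD7, an inhibitor of TGF-beta signalling, had 8 ARID1A and 2 ARID1B peaks, with the nearest pair 44 bp apart. IZUMO2 (6 and 10), ADGRG6 (3 and 8) and UNC93A (4 and 6) followed, although 1 ARID1A peak of UNC93A met an ARID1B peak named for another gene. Around IZUMO2 the peaks were distal and interspersed over a stretch between 17976 and 41725 bp from a TSS.

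**Figure D4:**
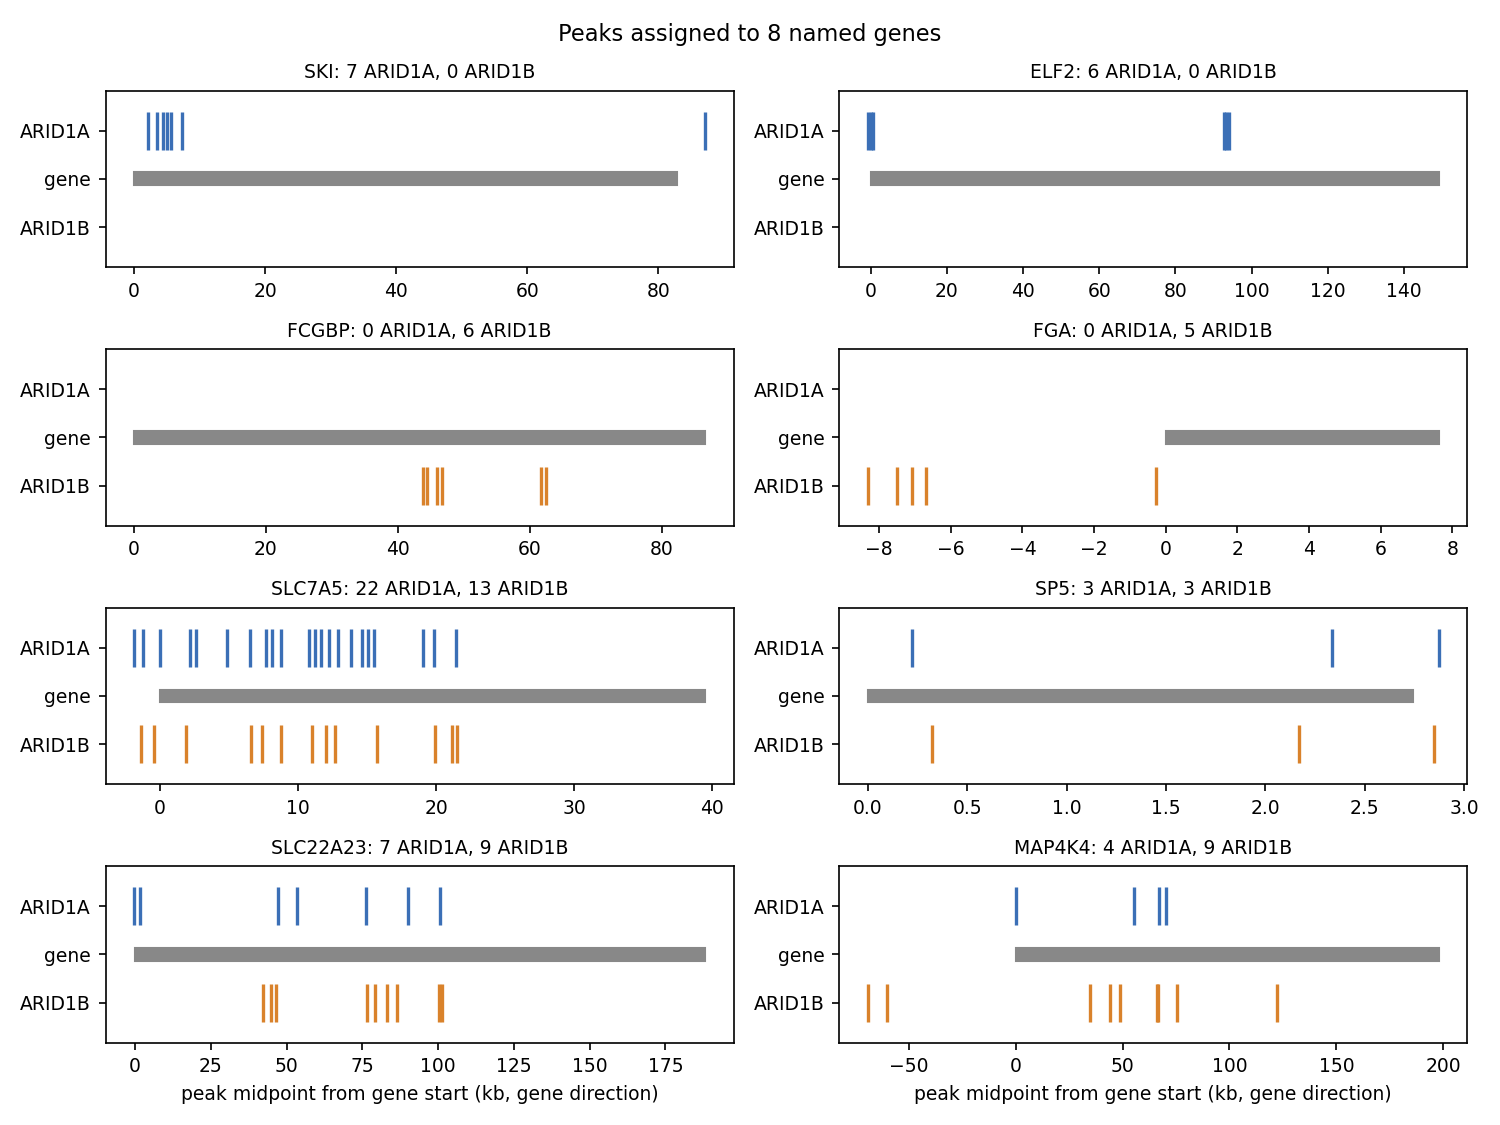
Midpoints of the peaks assigned to 8 genes, in kb from the gene start in the direction of transcription; blue ticks are ARID1A, orange ticks ARID1B and the grey bar is the gene. SKI and ELF2 carry ARID1A only, FCGBP and FGA ARID1B only, SLC7A5 and SP5 overlapping peaks of both, and SLC22A23 and MAP4K4 separate peaks of both.

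Gene groups, chosen by function, were then described beside the share over all protein-coding genes (20.8% ARID1A only, 4.65% ARID1B only, 12.5% both). No test was made, and these groups also differ in how often any peak names them. Ribosomal protein, proteasome, replication and oxidative phosphorylation genes had ARID1A only more often than both. This was also the order over all protein-coding genes and, by name, in the spliceosome, cholesterol synthesis and SWI/SNF groups below. Of 74 ribosomal protein genes, 46 (62.2%) had ARID1A only, 4 ARID1B only, 12 both and 12 neither; an ARID1A promoter peak was present at 57. Examples with ARID1A only were RPLP0, RPL3 and RPS6, each with 1 promoter peak, and the 4 with ARID1B only were RPL4, RPS3A, RPS23 and RPS26. Of 31 proteasome genes, 17 (54.8%) had ARID1A only, 2 ARID1B only (PSMB6 and PSMB7) and 4 both. Of 44 genes of DNA replication and mitosis, 20 (45.5%) had ARID1A only, among them MCM5, RFC2 and PLK1, and 2 ARID1B only (ORC6 and RFC5). In this group 7 (15.9%) had both, including CDK1, whose 2 promoter peaks overlapped. Of 60 nuclear genes of oxidative phosphorylation, 21 (35%) had ARID1A only, 2 (3.33%) ARID1B only and 9 (15%) both. Of 49 spliceosome and mRNA processing genes, 20 (40.8%) had ARID1A only, 1 ARID1B only and 16 (32.7%) both, and within 5000 bp of the gene bodies 17 had ARID1A only and 25 both.

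Among genes of secreted proteins and liver metabolism, ARID1B only was more frequent than ARID1A only, on small counts. Promoter peaks did not share this order. In the order of the groups below, 13, 7 and 5 genes had an ARID1A promoter peak, and 11, 7 and 5 an ARID1B promoter peak. Of 40 secreted plasma protein genes, 2 (5%) had ARID1A only (F10 and C3), 6 (15%) ARID1B only, 12 (30%) both and 20 neither. The 6 with ARID1B only were ALB, the 3 fibrinogen genes FGA, FGB and FGG, the coagulation factor gene F5 and the haptoglobin gene HP, and all 6 were exclusive. The ARID1B peaks of FGB, FGG and ALB lay 2510, 4702 and 21833 bp from a TSS, and HP and F5 had a promoter peak 82 and 148 bp from one. Shared sites in this group were at TF, SERPINA1, AHSG, RBP4, ORM1, ORM2 and APOH. Of 28 genes of apolipoproteins and lipoprotein uptake, 2 had ARID1A only, 4 ARID1B only (APOA1, APOA5, ABCG8 and ANGPTL4) and 7 both. APOB, the protein of low-density lipoprotein, had 6 ARID1A and 8 ARID1B peaks. Of 33 genes of bile acid and drug metabolism, 4 had ARID1A only, 6 ARID1B only and 5 both. CYP7A1, the rate-limiting enzyme of bile acid synthesis, had 2 ARID1B peaks, the nearer 146 bp from a TSS, and no ARID1A peak within 5000 bp. CYP27A1, of the alternative pathway, had overlapping promoter peaks (2 ARID1A and 3 ARID1B peaks in all).

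Cholesterol and fatty acid synthesis did not share this order. Of 31 genes, 12 (38.7%) had ARID1A only, among them HMGCS1, ACLY (4 promoter peaks) and SCD, 1 had ARID1B only (MVK, not exclusive) and 8 both, including FASN (5 and 1) and SREBF1 (7 and 1), the regulator of lipogenic genes. Within 5000 bp of the gene bodies 12 had ARID1A only and 12 both.

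Among the bound genes of the regulatory groups, those with both were the most numerous. Of 32 liver transcription factor genes, 13 (40.6%) had both, 7 ARID1A only, 4 ARID1B only and 8 neither. FOXA1 (3 and 3), FOXA2 (3 and 3), CEBPB (6 and 6), GATA4 (5 and 2), HHEX (7 and 5) and XBP1 (2 and 3) had overlapping sites. HNF4A had 3 ARID1A peaks and no ARID1B peak by name, although 8 ARID1B peaks lay within 5000 bp of the gene. The ARID1B only genes ONECUT1, ONECUT2, NR1H4, the bile acid receptor, and PPARG had no promoter peak. Of 38 genes of the TGF-beta and SMAD pathway, 17 (44.7%) had both, 10 ARID1A only and 1 ARID1B only (ACVR2A). SMAD2, SMAD4 and SMAD5, which carry the signal, had 1 ARID1A peak each and no ARID1B peak, whereas SMAD3, which also carries it, had both (3 and 5). Among inhibitors of the pathway, SMAD6 (3 and 3), SMAD7 (8 and 2), SKIL (5 and 1) and SMURF2 (5 and 2) had both, and SKI had ARID1A only. These signal carriers and inhibitors are examples, and the group holds others of each kind that are not given here. The nearest peaks of SMAD6 and SKIL were 387 and 13 bp apart, whereas SMAD3 and SMURF2 had overlapping pairs. Of 39 Wnt genes, 14 had both, 9 ARID1A only and 2 ARID1B only (AXIN1 and DKK1). The feedback genes AXIN2 (6 and 6), RNF43 (4 and 6), ZNRF3 (4 and 4) and NKD1 (2 and 3) and the receptor FZD5 (6 and 8) had overlapping sites. Of 29 AP-1 and early response genes, 11 had both, 10 ARID1A only and 1 ARID1B only (KLF4). Within 5000 bp of the gene bodies 14 had both, 8 ARID1A only and 0 ARID1B only. By nearest-gene name FOS, JUN and ATF3 had ARID1A peaks only, whereas FOSB, FOSL2, JUNB and MYC had overlapping peaks of both.

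In the remaining groups, too, genes with both were the most numerous of those bound, and the share with ARID1B only was near the 4.65% of all protein-coding genes or below it. Of 22 Hippo and TEAD genes 7 had both, 5 ARID1A only and 1 (4.55%) ARID1B only, and the coactivator YAP1 had 2 ARID1A and 6 ARID1B peaks. Of 40 adhesion, matrix and cytoskeleton genes 15 had both, 10 ARID1A only and 2 (5%) ARID1B only. Of 28 genes of the insulin and IGF axis 9 had both, 7 ARID1A only and 0 ARID1B only. Counts within 5000 bp of gene bodies turned the order of ARID1A only and both for the spliceosome group and made them equal for cholesterol and fatty acid synthesis, as given above. For bile acid and drug metabolism both became the most frequent class (3 ARID1A only, 6 ARID1B only, 7 both). The order of the classes was kept in the other groups, among them ribosomal proteins (45 ARID1A only, 4 ARID1B only, 17 both), secreted plasma proteins (3, 5 and 14) and apolipoproteins and lipoprotein uptake (1, 3 and 14).

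Of 30 SWI/SNF subunit genes, 11 (36.7%) had ARID1A only, 2 (6.67%) ARID1B only (ACTL6B and DPF3) and 8 (26.7%) both, against 20.8%, 4.65% and 12.5% of all protein-coding genes. SMARCB1, SMARCC1, SMARCD1, SMARCE1 and PBRM1 each had 1 ARID1A promoter peak and no ARID1B peak within 5000 bp. The ARID1A gene had 4 ARID1A peaks, 1 at the promoter, and 0 ARID1B peaks. The ARID1B gene had, by name, 1 ARID1A and 3 ARID1B peaks and no promoter peak, while 3 ARID1A and 4 ARID1B peaks of any name lay within 5000 bp of it; a distal peak of each (chr6:157041129-157041395 and chr6:157041185-157041345) overlapped, 57799 bp from a TSS. SMARCA4, the ATPase BRG1, had 1 ARID1A and 3 ARID1B peaks with an overlap, and ARID2 had 4 and 3.

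**Figure D5:**
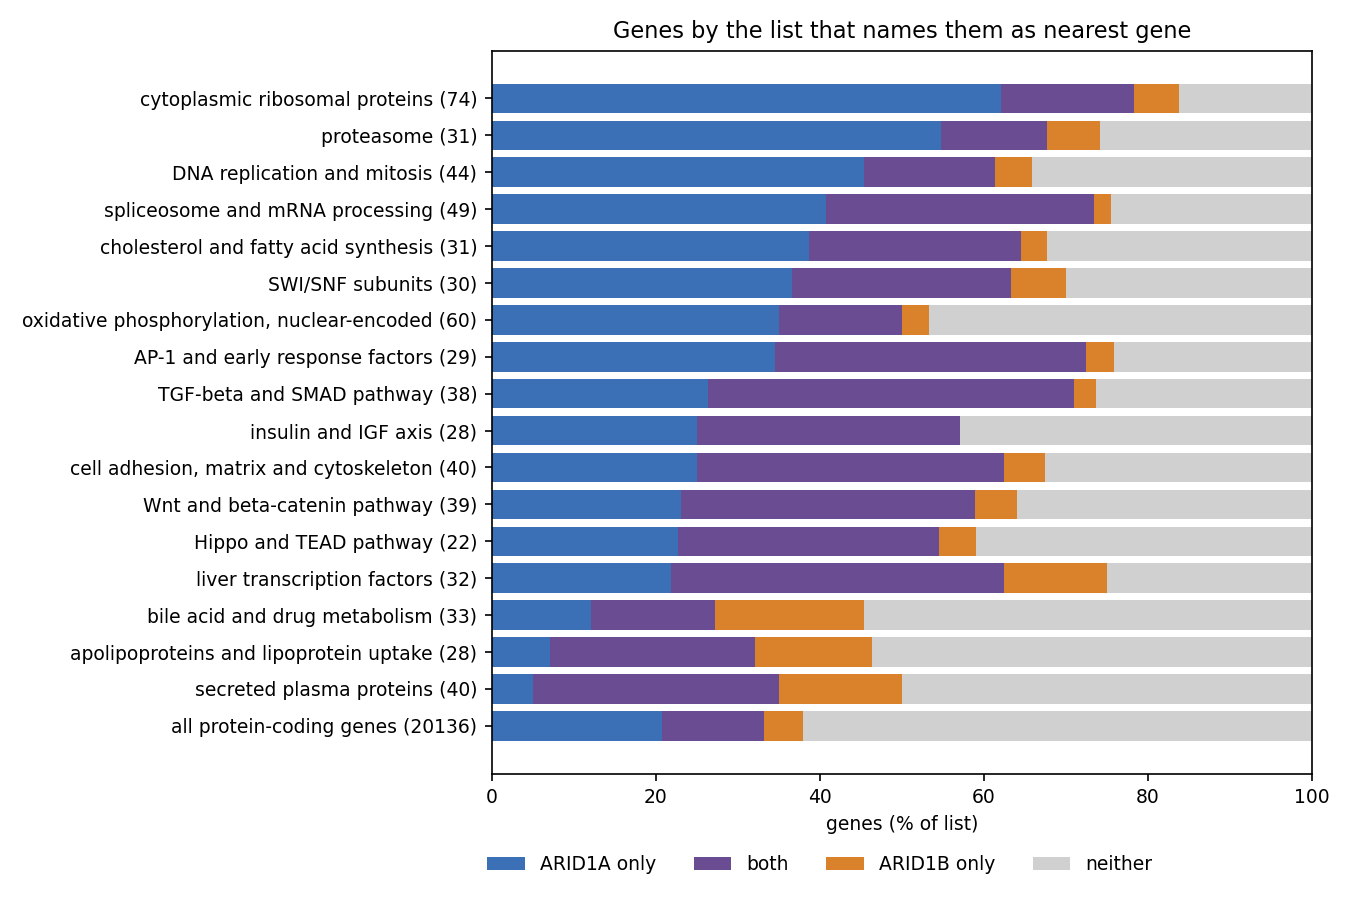
Share of the genes of each group (%, number of genes in parentheses) named by ARID1A only, both, ARID1B only or neither, with all protein-coding genes at the bottom. Ribosomal protein genes show the highest share of ARID1A only (62.2%), and plasma protein, apolipoprotein and bile acid genes have more genes with ARID1B only than with ARID1A only.

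The balance of the lists varied along the genome. The number of ARID1B peaks per ARID1A peak ran from 0.439 on chromosome 19 to 0.994 on chromosome 2 among the autosomes. Chromosome X stood apart with 35 ARID1A and 62 ARID1B peaks, 0 of them overlapping. SNF5 overlapped 22.9% of these ARID1A and 8.06% of these ARID1B peaks. Leaving out both sex chromosomes moved the odds ratio of the promoter shares from 9.01 to 8.92.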

How the data were processed

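HepG2 ChIP-seq peak lists were analysed for ARID1A, ARID1B, ARID2 and SNF5. Grouping followed the antibody named in the labels, and the input library was not used. The authors aligned reads to hg19 with Bowtie2, removed duplicates, merged both replicates, called broad peaks with MACS2, joined neighbouring peaks and removed blacklisted regions. The deposited values are peak positions and TSS distances in bp, with a feature class and nearest gene (Gencode). The ARID lists hold no counts or scores, so depth is unknown and only counting error could be given. Starts are printed counted from 1.

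The deposited chromatin state was not used: overlapping ARID1A and ARID1B peaks had the same feature class in 97.4% and the same nearest gene in 93.3%, but the same state in 42.9%.

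Overlaps, Wilson intervals, two-sided Fisher's exact tests with Benjamini-Hochberg adjustment over families of 3 (threshold 0.05), odds ratios with Woolf intervals and Mantel-Haenszel odds ratios were computed with Python 3.11.15, pandas 2.3.3 and SciPy 1.17.1, after tests on simulated data. Nearest-gene names were matched to a Gencode annotation lifted to GRCh37, directly or through older RefSeq symbols: 7284 of 8448 ARID1A and 4159 of 5543 ARID1B names matched. Motifs were read from the GRCh37 sequence with pysam 0.24.0.

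Named genes were those with the most peaks, the widest peaks or the longest shared stretches in each class (6 per rule), the members of 17 gene groups, and ARID1A and ARID1B. Stretches of 200 or 240 bp, moved off annotated exons, were printed for some of the widest exclusive genes and the longest shared stretches; others that these rules chose are not reported here. The members and gene groups were chosen with earlier results of these data known. Alternatives were other overlap rules, joined peaks, autosomes, equal list sizes, other promoter distances, strata of width, gene bodies and smaller windows; the exclusive genes and TGTAATCCC were added after the data were seen.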

Additional observations from a re-analysis of the deposited data

Results flagged for a closer look

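The promoter odds ratio of shared against alone peaks was above 1 in the ARID1B list (5.83) and below 1 in the ARID1A list (0.617). The same contrast therefore had opposite directions in the 2 lists, each past the threshold in its own Fisher's exact test. The promoter shares of shared peaks (64.6% and 65.7%) lay between those of ARID1A alone (74.7%) and ARID1B alone (24.7%). The opposite directions are therefore not a result apart from the contrast of these 2 classes. The difference between the odds ratios was not tested, because the shared peaks of both lists are largely the same regions.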

How the results depend on the processing

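The lists hold no replicates, depth or scores, so no value here has a replicate error, no library could be left out, and a weak site of the other subunit cannot be told apart from its absence. No paired analysis was possible because both replicates of each antibody were merged into 1 list before deposit. All 54 odds ratios computed under an alternative kept their direction and their side of the threshold. With so many peaks in each class the side of the threshold could hardly change, and every alternative reused the same merged lists. The SNF5 and ARID2 odds ratios of shared regions moved by more than 1.5 times with the width strata, as given above, and with other rules. These rules set which SNF5 or ARID2 peaks counted as overlapping a region, while the classes of the regions were kept. With midpoints within 500 bp the ratios against ARID1A alone and ARID1B alone were 2.04 and 3.64 for SNF5 and 2.96 and 9.61 for ARID2, and with a gap of up to 1000 bp those for ARID2 were 2.71 and 9.86.

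The shares overlapped moved with the rule. For ARID1A and ARID1B peaks they were 5.25% and 7.73% with reciprocal overlap, 36.7% and 49.2% with a gap of up to 1000 bp, 27.7% and 40.1% with midpoints within 500 bp, 25.7% and 34.6% after joining peaks within 1000 bp, and 26.0% and 27.7% with equal list sizes (the 8728 widest ARID1A peaks). The share of common genes with separate sites was 83.5% with reciprocal overlap, 18.9% with a gap of up to 1000 bp, 26.4% with midpoints within 500 bp and 33.3% for peaks within 5000 bp of a TSS. Among gene counts, promoter-class peaks left 456 genes with ARID1B only, and gene bodies gave 3891 with both. The other gene counts each stayed within 1.5 times. Equal list sizes still narrowed the contrast, to 3116 genes with ARID1A only and 1292 with ARID1B only, from 4188 and 936. The GC difference between ARID1A alone and ARID1B alone (16.3 percentage points) was 15.3 in windows of 150 bp, 9.67 among promoters and 7 outside them. Of 39 motif differences under an alternative, 33 kept their call; the difference in AP-1 letters between ARID1A alone and ARID1B alone was -4.59 percentage points over all regions and -0.74 outside promoters. For promoter shares, shared against alone ARID1B peaks had odds ratios from 2.24 with reciprocal overlap to 7.97 with a gap of up to 1000 bp, and ARID1A peaks from 0.391 within width strata to 0.762 at TSS distances of up to 500 bp.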
